A study of Mus musculus with 8 samples.

Results

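The muscle atrophy ligases and FoxO factors were followed through the 8 genes Fbxo32, Trim63, Trim54, Trim55, Foxo1, Foxo3, Klf15 and Murc. They were chosen by name, as every non-control probe of the array that is annotated to one of them, which gave 12 of 41174 probes. The tissue was the tibialis anterior, a mostly fast-fibred shin muscle, and the animals were C57BL/6 males 8 weeks old. Mice lacking Prep1 in skeletal muscle (Prep1deltaSM, n = 4) were compared with Prep1f/+ mice (n = 4), which by that notation carry a floxed Prep1 allele beside a wild-type one. The series design calls the controls Prep1 flox mice, and the promoter that removes the floxed allele in muscle is not given in the sources used here. Each mouse gave 1 array of Cy3-labelled RNA, and replicate numbers below only name the mice.

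Muscle loses mass when protein breakdown outpaces synthesis, and much of that breakdown runs through ubiquitin ligases that mark proteins for the proteasome. Fbxo32 (atrogin-1, also called MAFbx) is the F-box subunit of an SCF ligase, and Trim63 (MuRF1) is a RING ligase of the sarcomere; the transcripts of both are classic markers of wasting muscle. FoxO factors, which Akt holds out of the nucleus when insulin or IGF-1 signalling is high, drive both genes, and the glucocorticoid receptor acts beside them, in part through Klf15. Prep1 is the protein of Pknox1, a homeodomain factor that works with Pbx partners on DNA.

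The array reads each gene through a 60-base probe, so a value reports the stretch of transcript under that probe. The 30 bases at the 5′ end of the 6 probes on which the main results rest are given here, because Fbxo32 and Foxo1 are each read at separate places.
Fbxo32 probe A_51_P109369: gagaaggagatctcagggcttaaggagtta
Fbxo32 probe A_52_P868419: tcacagagagataaatcatcacaggagatg
Trim63 probe A_52_P517224: ccaaaacgtcacaggacacttttctacgtt
Foxo1 probe A_51_P138044: ttcggaatgacctcatggatggagatacct
Foxo1 probe A_52_P453884: ttctgggagaatgttcgctttctggtctat
Trim55 probe A_51_P356942: agagagagagacataaaggacacttgatca
The Fbxo32 probes lie on the minus strand of chromosome 15 in mm9, at 58011752 to 58011811 for A_51_P109369 and 58009391 to 58009450 for A_52_P868419, so their starts are 2361 bases apart and A_52_P868419 lies further downstream. The Trim63 probe lies on chromosome 4 at 133885025 to 133885084 and the Trim55 probe on chromosome 3 at 19544483 to 19544542. The Foxo1 probes lie on chromosome 3 at 52150183 to 52150242 and 52153289 to 52153348, with starts 3106 bases apart. Klf15 is read on chromosome 6 at 90425007 to 90425066 (A_52_P64383) and 90424191 to 90424250 (A_51_P299339). Foxo3 is read on chromosome 10 at 41905752 to 41905811 (A_51_P145507) and 41900547 to 41900606 (A_52_P373852). The other probes are A_51_P378029 for Murc (chromosome 4, 48686024 to 48686083) and A_51_P181175 for Trim54 (chromosome 5, 31439943 to 31440002). Their place in exons or UTRs was not analysed here.

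Of the 12 probes, 11 stood well above local background on all 8 arrays and were tested. The remaining one, A_52_P373852, is annotated to a Foxo3 cDNA and was not well above background on any array. All values below are log2 signals relative to the 75th percentile of the same array, and differences are Prep1deltaSM minus Prep1f/+. Levels of different probes are not comparable, since probes differ in how strongly they hybridise.

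Before the members, the arrays themselves were compared. Pknox1 was 3.39-fold lower in Prep1deltaSM muscle (difference -1.76 ± 0.13 SE, limma adjusted p = 0.0072), with no overlap between groups; whether the deletion removes the stretch under its probe is not known here. Per array, 23787 to 27123 spots were well above background. Prep1f/+ replicates 1 and 4 stood apart from the other arrays on the first principal component, with scores of 23.6 and 41.0 against -17.1 to 3.1. Member results that rest on them are also given without them, while single genes of the lists are not. Of the 4 slides used, each carried an array from either genotype. For skeletal muscle fibre markers (14 of 14 tested), the list mean per array, centred per gene, was similar, from -0.12 to 0.07 in Prep1f/+ and from -0.05 to 0.07 in Prep1deltaSM. Single markers differed in both directions, with Casq1 at 0.36 and Mb at -0.40 past an unadjusted limma p of 0.05 (14.3% of the list against 15.9% of all genes). Tendon markers (9 of 9 tested) ranged from -0.10 to 0.53 in Prep1f/+ and from -1.13 to 0.40 in Prep1deltaSM. Adipocyte markers (10 of 12 tested; Lep and Ucp1 below the filter) ranged from -0.38 to 0.89 and from -1.66 to 0.79. Slow fibre markers (11 of 12 tested; Pln below the filter) ranged from -0.22 to 0.88 and from -0.65 to 0.24. Fibroblast markers (14 of 14 tested) ranged from -0.15 to 0.42 and from -0.50 to 0.21, and 7 of them were lower at an unadjusted limma p of 0.05, where 10.3% of all genes were. Leukocyte markers (15 of 16 tested, Itgam below the filter) ranged from -0.10 to 0.33 and from -0.38 to 0.21, with 13 of 15 lower in sign. Their median difference was -0.43 against -0.07 over all genes, and the 2 higher ones were S100a8 (1.10) and S100a9 (0.67). Erythroid markers (4 of 7 tested) ran the other way, from -0.90 to 0.74 in Prep1f/+ and from -0.35 to 1.58 in Prep1deltaSM, with a median difference of 0.94. Satellite cell markers (8 of 9 tested, Myf5 below the filter) ranged from 0.04 to 0.15 and from -0.19 to 0.03, without overlap. The nearest list means were 0.038 and 0.029. Among these markers Cdh15 differed by -0.64 (limma adjusted p = 0.0897), Pax7 by -0.11, Sdc4 by -0.01 and Calcr by 0.16. Cdh15 was the 1 marker of the 8 whose own groups did not overlap, or 12.5% against 10.5% of all genes. The list mean without Cdh15 was not computed. Smooth muscle and pericyte markers ranged from -0.09 to 0.08 and from -0.17 to 0.10, endothelial markers from -0.19 to 0.38 and from -0.20 to 0.12, and Schwann cell markers from -0.27 to 0.58 and from -0.15 to 0.08. The part of these cells in the member values was not tested. In whole muscle, fewer cells of a type and less RNA per cell cannot be told apart.

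Across the 8 members, 0 passed an adjusted p of 0.05, where 0.00624% of the 16016 genes tested did so (limma with Benjamini-Hochberg adjustment). At an unadjusted p of 0.05, 1 member passed, Fbxo32, which was lower; the share of all genes lower at that level was 10.3%, 5.54% were higher, and 15.9% passed in either direction. Fbxo32 was also the 1 member whose groups did not overlap, against 10.5% of all genes in either direction 6.74% in the lower one and 3.72% in the higher one. A count of 1 in 8 is near those shares. Over the 11 tested probes, 0 passed the adjusted threshold (0.00408% of all probes), and 1, the brighter Fbxo32 probe, was lower at an unadjusted p of 0.05 (8.09% of all probes, and 17.8% in either direction) and did not overlap between groups (5.35% lower and 11.8% in either direction). Signal was higher in 4 members and lower in 4, with a median difference of 0.01 against -0.07 over all genes. The members thus spread around the background in both directions, from -0.88 for Fbxo32 to 0.86 for Trim55.

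**Figure D1:**
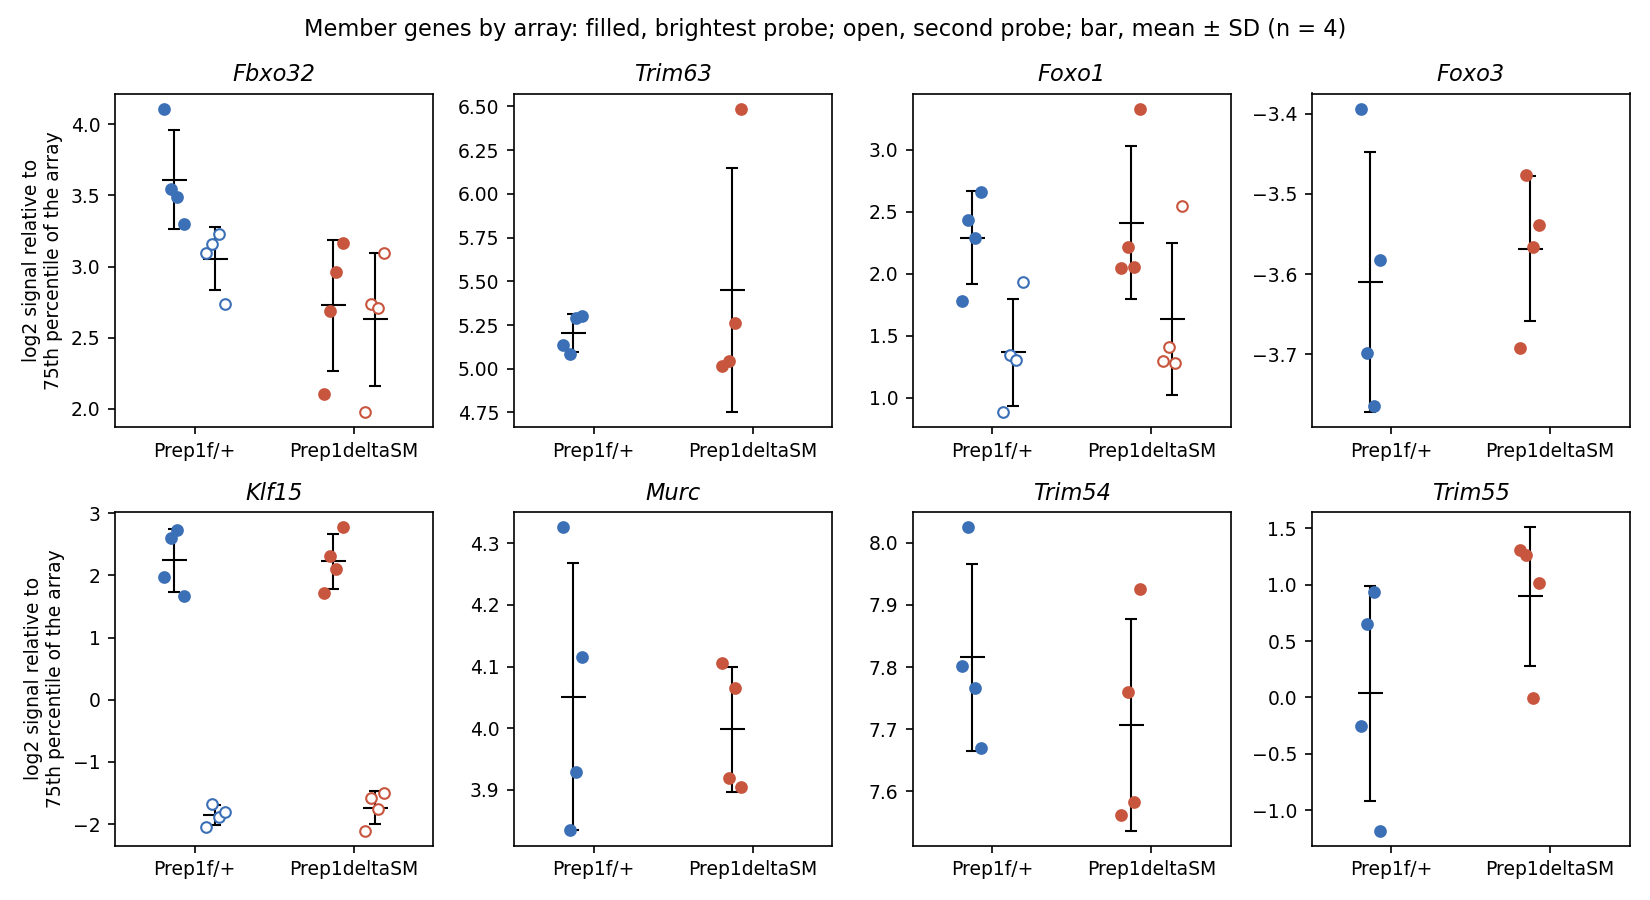
Log2 signal of each member relative to its array's 75th percentile (vertical axis, range set per gene) in 4 Prep1f/+ (blue) and 4 Prep1deltaSM (red) mice. Filled points are the brightest probe, open points a second tested probe of the same gene, and bars the mean ± SD. The Fbxo32 groups separate by 0.14 on the brightest probe, and 1 Prep1deltaSM mouse stands high for Trim63 and Foxo1.

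Fbxo32, the F-box ligase subunit of wasting muscle, had lower signal in Prep1deltaSM. On A_51_P109369, the brightest probe, the Prep1f/+ mice read 4.11, 3.54, 3.49 and 3.30. The Prep1deltaSM mice read 2.10, 2.69, 2.96 and 3.17. Every Prep1deltaSM value lay below every Prep1f/+ value, and the nearest values of the groups were 0.14 apart. Group means were 3.61 ± 0.35 (SD, n = 4) and 2.73 ± 0.46 (SD, n = 4), a 1.84-fold lower signal, or 54.2% of that in Prep1f/+. The difference was -0.88 ± 0.25 (SE), with a 95% interval of -1.46 to -0.30. The unadjusted limma p was 0.00769 and the adjusted p 0.193, which placed the gene 639th of 16016 by p. An exact two-sided permutation test over the 70 assignments of mice gave p = 0.0286, the smallest it can give. The difference was lower on each slide, at -1.44, -0.80, -0.95 and -0.34 for slides 1 to 4. Without Prep1f/+ replicates 1 and 4 it was -0.79.

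The downstream Fbxo32 probe showed a smaller difference. On A_52_P868419 the Prep1f/+ mice read 3.10, 3.16, 3.23 and 2.73, and the Prep1deltaSM mice 1.98, 2.73, 2.71 and 3.10. Here the groups overlapped, since Prep1deltaSM replicate 4 read as high as Prep1f/+ replicate 1. The difference was -0.43 ± 0.23 (SE), with a limma adjusted p of 0.369 over all probes and an exact permutation p of 0.0857. Within slides it was -1.18 and -0.50 on slides 1 and 2 but 0 and -0.03 on slides 3 and 4. Over the 8 arrays the probes nevertheless followed each other (r = 0.85 across arrays, a description), and Prep1deltaSM replicate 1 was lowest on both. The gap between the probes on the same array was computed after this disagreement had been seen. A_51_P109369 exceeded A_52_P868419 by 1.02, 0.39, 0.26 and 0.57 in Prep1f/+ and by 0.12, -0.04, 0.25 and 0.07 in Prep1deltaSM. The gap was thus wider in each Prep1f/+ mouse than in any Prep1deltaSM mouse, though the nearest pair, 0.257 and 0.252, almost touch. This restates the difference between the probes, and no test is drawn from it. The mean of both probes gave a difference of -0.65, and the authors' deposited values, which for this gene equal the mean of its probes, gave -0.62.

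Trim63, the MuRF1 ligase that marks thick-filament proteins, was not separated between the groups. The Prep1f/+ mice read 5.13, 5.09, 5.29 and 5.30, and the Prep1deltaSM mice 5.02, 5.04, 5.26 and 6.49. The other arrays lie between 5.02 and 5.30, and Prep1deltaSM replicate 4 stands apart at 2.51-fold the mean of the other arrays. The means were 5.20 ± 0.11 and 5.45 ± 0.70 (SD, n = 4 each), the difference 0.25 ± 0.31 (SE), the limma adjusted p 0.712 and the exact permutation p 0.886. Without that mouse the difference was -0.10 ± 0.11 (SE). On the slide that holds that mouse the difference was 1.35, and on the others it was -0.07, -0.25 and -0.04.

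Trim54 (MuRF3), a MuRF family member bound to microtubules and the sarcomere, had nearly equal signal. The Prep1f/+ mice read 7.80, 8.03, 7.77 and 7.67, and the Prep1deltaSM mice 7.56, 7.76, 7.58 and 7.92. The ranges overlapped, and the difference was -0.11 ± 0.12 (SE; limma adjusted p = 0.666, 95% interval -0.38 to 0.16).

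Trim55 (MuRF2), the third MuRF, was the member with the widest spread. The Prep1f/+ mice read -0.26, 0.65, 0.93 and -1.18, and the Prep1deltaSM mice 1.31, 1.26, -0.01 and 1.02. The groups overlapped, and 3 of 4 Prep1deltaSM mice exceeded every Prep1f/+ mouse. Means were 0.04 ± 0.96 and 0.90 ± 0.62 (SD, n = 4 each), a difference of 0.86 ± 0.49 (SE), or 1.81-fold, with a 95% interval of -0.25 to 1.97. The limma adjusted p was 0.414 and the exact permutation p 0.171. Within slides the difference was positive on each of the 4, at 0.66, 0.33, 1.28 and 1.17, and with slide as a block the unadjusted p was 0.00365 and the adjusted p 0.212. The value rests on Prep1f/+ replicates 1 and 4, the arrays that stand apart: without both it was 0.10, without replicate 4 alone 0.45, and with normexp background correction and quantile normalization 0.38.

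**Figure D2:**
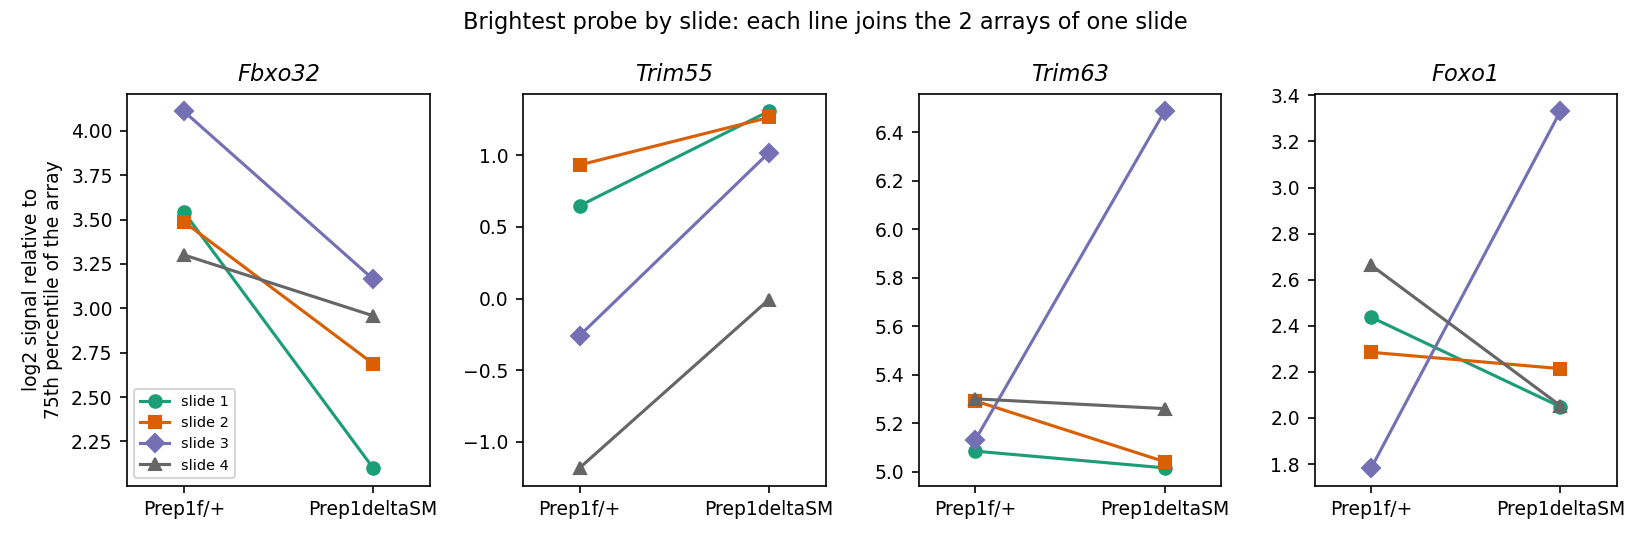
Log2 signal relative to the 75th percentile of the array (vertical axis, range set per gene) for the brightest probe of 4 members, with a line joining the 2 arrays of each slide. Fbxo32 slopes down and Trim55 up on every slide, while Trim63 and Foxo1 slope steeply up on slide 3, which holds Prep1deltaSM replicate 4.

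Foxo1, the FoxO factor that Akt phosphorylates and that drives Fbxo32 and Trim63, was not separated between groups. On A_51_P138044 the Prep1f/+ mice read 1.78, 2.44, 2.28 and 2.66, and the Prep1deltaSM mice 2.05, 2.21, 2.05 and 3.33. On A_52_P453884 they read 0.89, 1.35, 1.31 and 1.93, and 1.29, 1.41, 1.28 and 2.55. Both probes placed Prep1deltaSM replicate 4 highest of all mice and Prep1f/+ replicate 1 lowest, with r = 0.97 between them across the 8 arrays. The difference was 0.12 ± 0.31 (SE; limma adjusted p = 0.874) on the brighter probe and 0.27 ± 0.32 (SE; adjusted p over probes = 0.695) on the other. Without Prep1deltaSM replicate 4 the first of these was -0.19 ± 0.20 (SE).

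Foxo3, the FoxO factor linked to both proteasomal and autophagic breakdown, gave a dim but even signal on A_51_P145507. The Prep1f/+ mice read -3.39, -3.70, -3.76 and -3.58, and the Prep1deltaSM mice -3.69, -3.48, -3.57 and -3.54. The ranges overlapped, and the difference was 0.04 ± 0.10 (SE; limma adjusted p = 0.867), with a 95% interval of -0.19 to 0.28. The cDNA probe not well above background read -6.95 to -5.75 in Prep1f/+ and -7.12 to -6.57 in Prep1deltaSM, and no test was made on it. Foxo4, another FoxO factor, differed by 0.01.

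Klf15, a glucocorticoid-induced factor that turns on breakdown of branched-chain amino acids, differed by less than the spread between mice. On A_52_P64383 the Prep1f/+ mice read 1.97, 2.60, 2.73 and 1.68, and the Prep1deltaSM mice 1.72, 2.31, 2.10 and 2.78. The difference was -0.02 ± 0.29 (SE; limma adjusted p = 0.983), and its sign depends on the scaling, at 0.03 with quantile normalization. The second probe, A_51_P299339, read -2.05, -1.67, -1.89 and -1.81, and -2.10, -1.58, -1.76 and -1.49, a difference of 0.12 ± 0.15 (SE; adjusted p over probes = 0.704). The 95% interval on the brighter probe, -0.68 to 0.65, is wide beside the difference. Without Prep1f/+ replicates 1 and 4 the difference was -0.44.

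Murc (Cavin4 in RefSeq), the muscle member of the cavin coat of caveolae, was even across the mice. The Prep1f/+ mice read 4.33, 3.83, 3.93 and 4.12, and the Prep1deltaSM mice 4.11, 3.92, 4.06 and 3.90. The Prep1deltaSM range lay inside the Prep1f/+ range, with a difference of -0.05 ± 0.12 (SE; limma adjusted p = 0.854) that was 0.02 with quantile normalization.

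**Figure D3:**
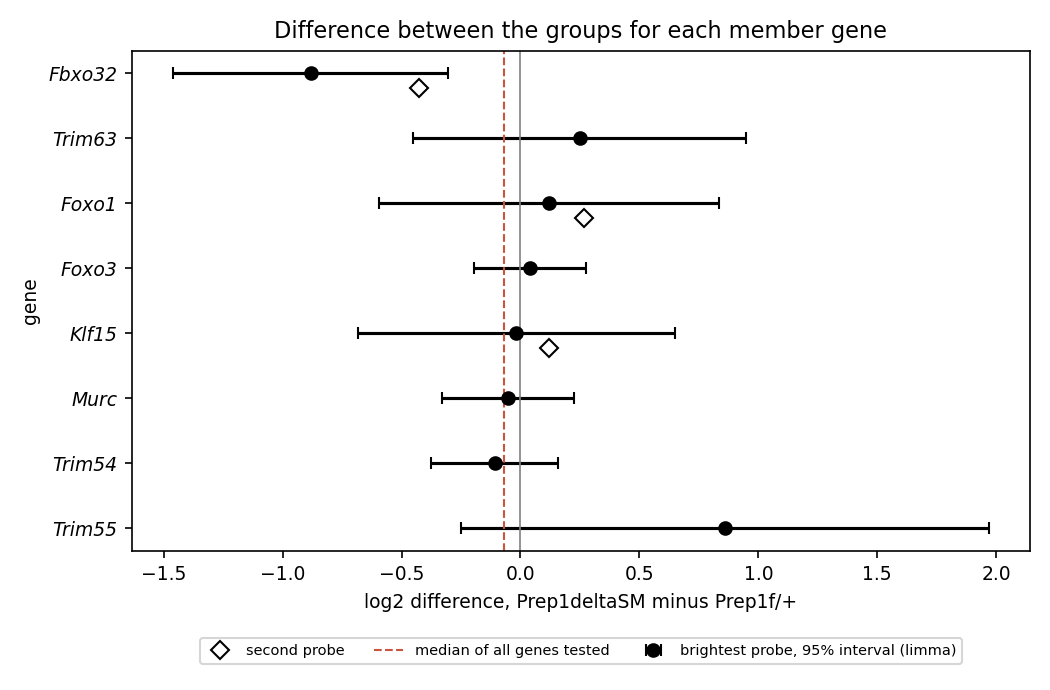
Log2 difference between groups (horizontal axis, Prep1deltaSM minus Prep1f/+) for each member. Points with bars are the brightest probe with its 95% limma interval, diamonds a second tested probe, and the dashed line the median of all genes, -0.07. The interval excludes 0 for Fbxo32, before adjustment over genes, and includes 0 for the other 7 members.

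The members fell into a variable and an even group. Pooled within-group SDs were 0.80 for Trim55, 0.51 for Foxo1, 0.50 for Trim63, 0.47 for Klf15 and 0.41 for Fbxo32, each at or above the 84.8th percentile of all genes, whose median was 0.19. Murc (0.17), Trim54 (0.16) and Foxo3 (0.13) lay below that median, the last of them on a dim probe. Among the 28 pairs of members, with group means removed, 0 passed an adjusted exact permutation p of 0.05. The strongest positive pair was Trim63 with Foxo1 (n = 8; r = 0.86, exact permutation p = 0.0781, adjusted 0.547; Spearman rho = 0.69, p = 0.0799, adjusted 0.457), with r = 0.48 without the 2 mice farthest on Trim63, 1 of them Prep1deltaSM replicate 4. Klf15 and Trim54 gave the smallest p (n = 8; r = 0.77, exact permutation p = 0.0399, adjusted 0.547; rho = 0.81, p = 0.0347, adjusted 0.457; r = 0.60 without the 2 farthest mice).

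Genes with the most similar pattern to each member were found by Pearson r over the 8 arrays among the tested genes that are not members, as a description. Unlike for the pairs above, group means were left in. The 2 highest of 16001 genes are named per member, and r passed 0.9 for 119 of these genes with Fbxo32 and for 11 to 89 with the other members. For Fbxo32 they were Psmb7, a proteasome subunit (r = 0.98, difference -0.24), and Mcts2 (r = 0.98). For Trim63 they were Ndel1 (r = 0.96) and Mt1, a metallothionein (r = 0.95), and for Foxo1 Lrrc8a (r = 0.98) and Mad2l1bp (r = 0.97). For Klf15 they were Pum2 (r = 0.98) and Map1lc3b, the autophagosome protein LC3B (r = 0.98), and for Trim55 Dhx33 and Cdcp1 (both r = 0.98). For Trim54 they were Ube2v1 and Heatr7a (both r = 0.98), for Murc Wsb1 (r = 0.97) and Btg3 (r = 0.96), and for Foxo3 Olfr187 (r = 0.96) and Zfp142 (r = 0.95).

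The mouse that was high for Trim63 and Foxo1 was also high for glucocorticoid responsive genes. In Prep1deltaSM replicate 4, Mt1 read 6.47 against 2.98 to 3.97 on the other 7 arrays, and Mt2, another metallothionein, 6.27 against 1.82 to 3.71. Fkbp5, a co-chaperone induced by the receptor, read -0.04 against -1.34 to -0.45, and Tsc22d3 (GILZ) read 5.01 against 4.28 to 4.67. Nr3c1, the receptor gene itself, lay 0.14 above the mean of the other 7 arrays. This array was the highest of the 8 for 7 of the 17 tested genes of that list (41.2%) and for 8.65% of all genes. It stood above the mean of the other 7 arrays for 15 of the 17 (88.2%) and for 46.8% of all genes. Fbxo32 in this mouse, at 3.17, was close to the mean of the other arrays, also 3.17. These are readings of 1 mouse, chosen after its values were seen, and their part in the Trim63 and Foxo1 values was not tested.

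**Figure D4:**
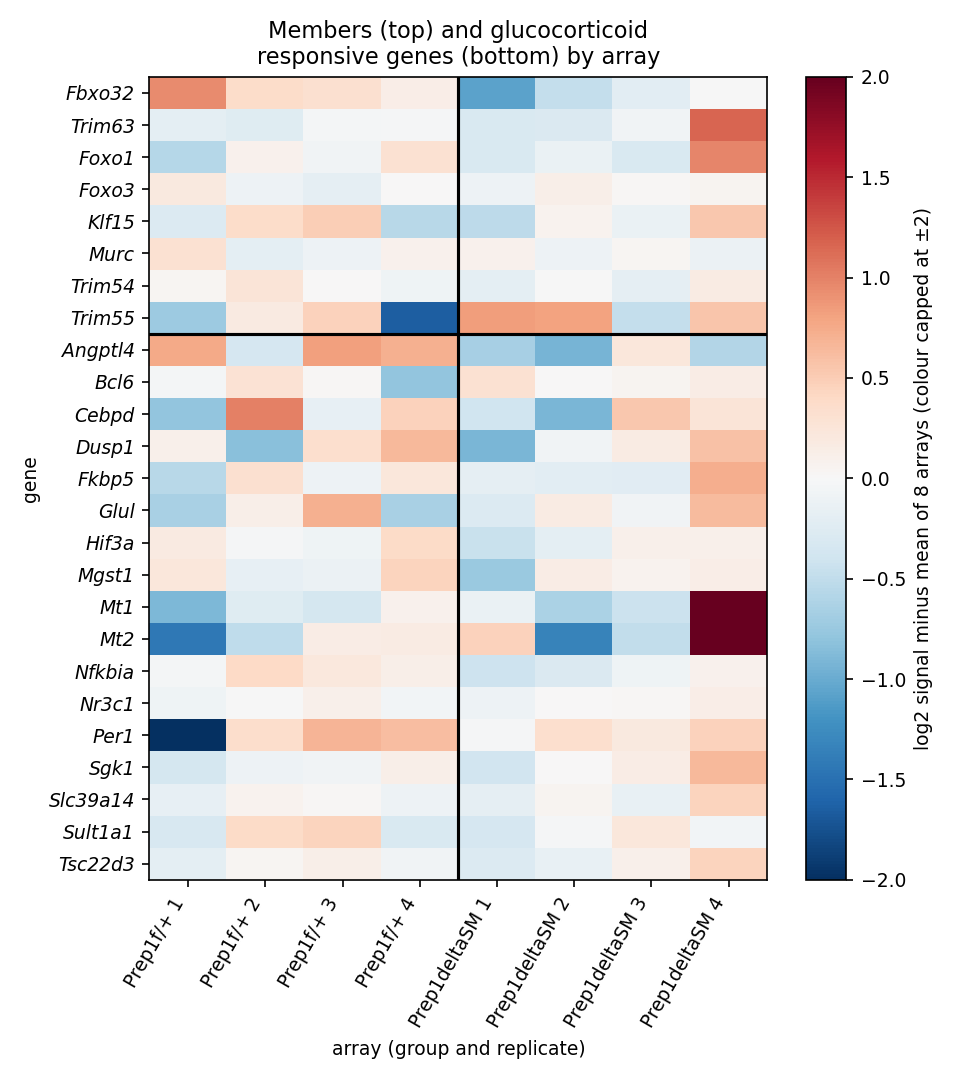
Log2 signal minus the gene's mean over the 8 arrays (colour, capped at 2 in either direction) for the 8 members (top) and 17 glucocorticoid responsive genes (bottom) in each array (columns, by group and replicate). The last column, Prep1deltaSM replicate 4, is red for Trim63, Foxo1, Mt1, Mt2 and Fkbp5, and near white for Fbxo32.

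As a group, the 17 glucocorticoid responsive genes did not pass in either direction. At an adjusted p of 0.05 there were 0 calls by limma; at an unadjusted 0.05 there were 2, both lower (11.8% against 15.9% of all genes), Angptl4 (-0.97, adjusted p = 0.226) and Nfkbia (-0.35, adjusted p = 0.28). Signal was higher in 10 and lower in 7, with a median of 0.06 against -0.07 over all genes. Per1, a clock gene that the receptor also induces, read -1.85 in Prep1f/+ replicate 1 against 0.77 or more on the other arrays.

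The promoters of 6 members were found in the RefSeq table of GRCm38.p6 (Fbxo32 and Trim55 have no entry). The 250 bases before the start of 3 of them are shown because these 3 hold TGACAG or its reverse complement CTGTCA, the core recognised by PREP and MEIS proteins. Capitals mark that core, the FoxO motif GTAAACA or TGTTTAC, and the inner part of the glucocorticoid receptor palindrome.
Trim63 promoter, chr4:134314870-134315119, plus strand: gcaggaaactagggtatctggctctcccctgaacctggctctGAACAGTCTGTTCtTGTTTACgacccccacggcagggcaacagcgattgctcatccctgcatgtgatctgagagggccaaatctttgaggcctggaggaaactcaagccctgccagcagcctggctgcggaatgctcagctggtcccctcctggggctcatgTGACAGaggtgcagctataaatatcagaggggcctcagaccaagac
Foxo1 promoter, chr3:52268087-52268336, plus strand: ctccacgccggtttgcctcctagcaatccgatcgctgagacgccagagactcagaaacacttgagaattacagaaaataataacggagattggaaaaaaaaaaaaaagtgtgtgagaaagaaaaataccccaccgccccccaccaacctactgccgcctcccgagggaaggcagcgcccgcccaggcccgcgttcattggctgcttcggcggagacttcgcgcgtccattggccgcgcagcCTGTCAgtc
Trim54 promoter, chr5:31116362-31116611, plus strand: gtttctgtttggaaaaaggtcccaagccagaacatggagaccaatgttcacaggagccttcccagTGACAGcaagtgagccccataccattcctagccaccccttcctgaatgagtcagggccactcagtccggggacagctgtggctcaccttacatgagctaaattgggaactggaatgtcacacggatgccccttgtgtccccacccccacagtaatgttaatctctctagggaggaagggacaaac
Both strands were searched, and none of the capitalised matches overlap. The TGACAG core occurs in 15.9% of the 32851 promoters of the table, so 3 of 6 members is a description of these letters and not a binding site. The FoxO motif was found in the Trim63 promoter, 194 bases before the start, and occurs in 3.17% of promoters. The inner part of the receptor palindrome lies beside it at 208 bases and occurs in 0.0396% of promoters; it was searched for after this promoter had been read, and the full palindrome was found in 0 of the 6. The E-box CANNTG occurred in 5 of the 6 (66.2% of all promoters) and the KLF motif CCACCC or GGGTGG in Murc and Trim54 (28.1%).

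Other genes of these pathways were read from lists, and 0 genes of any of the 9 lists passed an adjusted p of 0.05 (limma). Among 25 tested FoxO target genes, 22 were lower and 3 higher in sign, and the share of all genes lower in sign is not given here. The list median of -0.11 lay close to the -0.07 of all genes. At an unadjusted limma p of 0.05, 1 gene was lower, or 4.0% of the list against 10.3% of all genes. That gene was Cdkn1a, the p21 cell cycle inhibitor (-0.49 ± 0.20 SE, adjusted p = 0.298). Txnip, a thioredoxin inhibitor, differed by -0.57, and Sqstm1, the autophagy receptor p62, by -0.25. Txnip read 5.57 in Prep1f/+ replicate 1 and 4.11 to 4.69 in the other Prep1f/+ mice. Sesn1 (-0.08), Gadd45a (-0.14), Pdk4 (-0.11), Ddit4 (-0.21) and Fbxo30 (0.08) were nearer to 0.

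Of the 29 kinases and modifiers upstream of the FoxO factors, 2 were higher and 3 lower at an unadjusted p of 0.05, or 17.2%, near the 15.9% of all genes. Insr, the insulin receptor, read 0.58, 0.53, 0.56 and 0.40 in Prep1f/+ and 0.90, 0.84, 0.77 and 0.80 in Prep1deltaSM. These groups did not overlap, with a difference of 0.31 ± 0.08 (SE; limma adjusted p = 0.171), and with normexp and quantile normalization the difference was 0.18 at an adjusted p of 0.0447. Prkaa1, a catalytic AMPK subunit, differed by -0.31 (adjusted p = 0.19), Stk4, the MST1 kinase, by -0.30 (adjusted p = 0.2) and Ep300, an acetyltransferase, by -0.28 (adjusted p = 0.235). Over the whole list the groups did not overlap for 5 of 29 genes, or 17.2%, where 10.5% of all genes did not overlap. The list median was 0.05.

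The other muscle ubiquitin ligases split into 7 with higher and 11 with lower signal among 18 tested, and their median of -0.07 was close to that of all genes. Cul1, the scaffold of the SCF ligases to which Fbxo32 belongs, read 0.58, 0.80, 0.64 and 0.56 in Prep1f/+ and 0.95, 0.92, 0.90 and 0.89 in Prep1deltaSM. The groups did not overlap (0.27 ± 0.08 SE, limma adjusted p = 0.208). Wwp1 differed by 0.15 with no overlap, Traf6 by -0.19, Fem1a by -0.18 and Fbxo40 by 0.24. Over the whole list the groups did not overlap for 2 of 18 genes, or 11.1%, near the 10.5% of all genes. At an unadjusted limma p of 0.05, 1 of the 18 passed, Cul1, or 5.56% against 15.9% of all genes.

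Among 10 genes listed as KLF15 targets, 2 were higher and 2 lower at an unadjusted p of 0.05, or 40.0% against 15.9% of all genes. Whether each listed gene, Acss2 among them, is a target of KLF15 was not checked here. Bcat2, the mitochondrial branched-chain aminotransferase, differed by -0.34 (limma adjusted p = 0.225) and Acss2, an acetyl-CoA synthetase, by -0.37 (adjusted p = 0.24). The amino acid transporter Slc7a8 differed by 0.62 (adjusted p = 0.247) and Gpt2, an alanine aminotransferase, by 0.38 (adjusted p = 0.26). The groups did not overlap for Slc7a8 and Gpt2, or 2 of 10 genes, where 10.5% of all genes did not overlap. Slc7a8 read -0.42 in Prep1f/+ replicate 1 and 0.06 to 0.43 in the other Prep1f/+ mice. In Prep1deltaSM it read 1.21 in replicate 4 and 0.47 to 0.55 in the other mice. Among 11 relatives of Klf15, Klf2 differed by -0.61 (adjusted p = 0.308), Klf10 by -0.53, Klf7 by 0.20 and Klf13 by 0.13.

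The list of cavins, caveolins and membrane proteins that work with them (10 genes) gave 0 calls at an unadjusted p of 0.05 by limma, against 15.9% of all genes. Ptrf (Cavin1) differed by -0.25, Sdpr (Cavin2) by -0.19, Cav1 by 0.17, Dysf, the membrane repair protein dysferlin, by 0.13 and Cav3, the muscle caveolin, by -0.04. The 23 sarcomeric partners of the MuRFs also gave 0 calls at that level, with 16 lower, 7 higher and a median of -0.11. Myl2, the slow myosin light chain, had the widest range, from 0.24 to 3.99 in Prep1f/+ and from -0.73 to 1.73 in Prep1deltaSM (-1.93 ± 0.87 SE, limma adjusted p = 0.328). Tcap differed by -0.23, Actn3 by 0.15, Nbr1 by 0.22 and Ttn, titin, by 0.04.

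**Figure D5:**
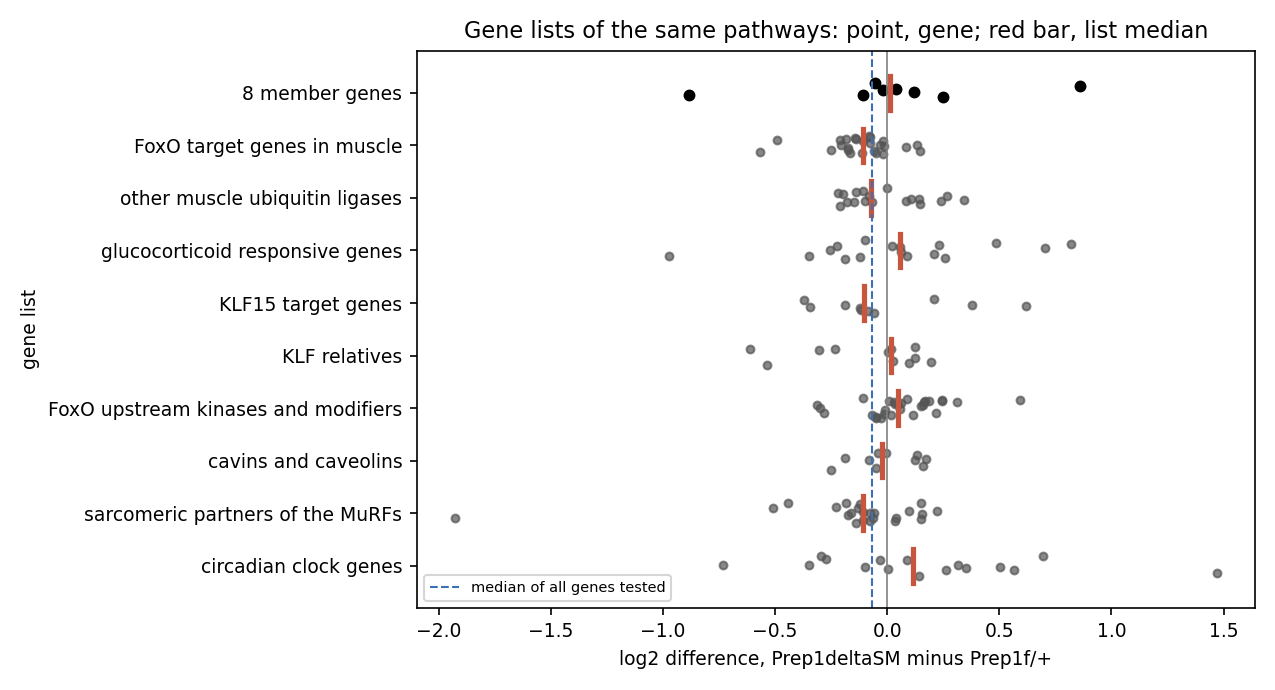
Log2 difference between groups (horizontal axis, Prep1deltaSM minus Prep1f/+) of each tested gene (points) in the 8 members and in 9 lists of related genes (vertical axis). Red bars are list medians, from -0.11 to 0.12, and the dashed line is the median of all genes, -0.07.

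Of the 16 circadian clock genes tested, 2 were higher at an unadjusted p of 0.05 and 0 lower (limma), or 12.5% against 15.9% of all genes. Cry1 differed by 0.57 (adjusted p = 0.182) and Cry2 by 0.50 (adjusted p = 0.258), both repressors of the clock, with no overlap between groups. These 2 of 16, or 12.5%, are near the 10.5% of all genes without overlap. For Cry2 the groups almost touch, at -0.022 in Prep1f/+ replicate 3 and -0.0075 in Prep1deltaSM replicate 3. Rora differed by 0.26 and Bhlhe40 by -0.35. The mean of the list was -0.50 in Prep1f/+ replicate 1 and between 0.02 and 0.16 in the other arrays. That mean joins genes that moved in opposite directions in this mouse. Arntl read 1.74 against -1.01 or less on the other arrays, and Clock 0.43 against -0.24 or less. Per2 read -6.78 against -1.51 or more, and Dbp 3.98 against 6.08 or more. Cry1 in that mouse, at -3.16, was the highest of its group, and Cry2, at -0.93, the lowest. Cry2 read -0.62 in Prep1f/+ replicate 4, and -0.20 and -0.02 in replicates 2 and 3.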

How the data were processed

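Total RNA of 8 mice was hybridised to Agilent arrays (design 014868, mm9 coordinates), with an array for each mouse. The deposited spot intensity comes, per the file headers, from Feature Extraction 10.5.1.1 (protocol GE1_107_Sep09), whereas the submitters' processing notes give version 9.1, and this difference is unresolved. A second deposited file, the authors' table of 32812 rows, holds linear intensity, quantile-normalized and not centred, with medians of 12.7 to 13.2; 15809 of its rows were used as an alternative.

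Intensities were taken as log2 relative to the 75th percentile of the array, 139 to 197. Flagged spots, 0 to 11 per array, were set missing, and 0 were saturated. The filter kept 24488 probes that were well above background on 4 or more arrays, and a gene was read by its brightest probe. Genotypes were contrasted in limma 3.58.1 under R 4.3.3 (lmFit, then eBayes), and p-values were adjusted by Benjamini-Hochberg across the genes tested, after the fit was tested on simulated data. Named genes were the members, up to 4 genes with the smallest p per list, a set of regulators fixed by name and the 2 most alike genes per member. Members and lists were chosen with earlier results of these data known. The number of arrays limits the precision.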

Additional observations from a re-analysis of the deposited data

Results flagged for a closer look

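In groups of 4 mice, a value was singled out when its gap to the nearest other mouse, divided by the range of the group, passed Dixon's 95% limit. This was so in 6 of 62 groups of probe values and list means, where chance gives about 1 in 20, or 3.1. These groups are not independent, since the Foxo1 probes follow each other (r = 0.97) and lists share genes such as Mb and Des. No excess is therefore read from that count. Prep1deltaSM replicate 4 was highest for Trim63 (ratio 0.834) and for both Foxo1 probes (0.871 for A_51_P138044 and 0.901 for A_52_P453884). The KLF relatives were highest in Prep1f/+ replicate 4 (0.843), with a list mean of 0.33 against -0.08 to -0.01 in the other Prep1f/+ mice. The circadian clock genes were lowest in Prep1f/+ replicate 1 (0.894). The Schwann cell markers were lowest in Prep1deltaSM replicate 3 (0.883), with a list mean of -0.15 against 0.05 to 0.08.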

How the results depend on the processing

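The members were recomputed under 20 alternatives, all planned. Of the 160 member values, 143 kept their sign and 0 passed an adjusted p of 0.05. Fbxo32 stayed lower in all 20 (-1.03 to -0.62, adjusted p 0.15 to 0.447), Trim54 stayed lower and Trim55 higher (0.10 to 1.16). Klf15 turned to 0.0030 with normexp and quantile normalization, 0.032 with quantile normalization, 0.051 when probes were averaged and 0.042 with the authors' values, and Murc to 0.039, 0.021 and 0.017 with normexp, quantile and the authors' values and 0.12 without Prep1f/+ replicates 1 and 4. As separate probe rows, quantile normalization gave 0.032 for Klf15 A_52_P64383 and 0.021 for Murc. With 1 mouse left out, ranges were -0.21 to 0.15 for Klf15, -0.13 to 0.039 for Murc, -0.19 to 0.24 for Foxo1, -0.010 to 0.11 for Foxo3 and -0.10 to 0.39 for Trim63. Pknox1 no longer passed with slide as a block (-1.76, adjusted p = 0.062), without Prep1f/+ replicates 1 and 4 (-1.78), or without Prep1f/+ replicate 2 (adjusted p = 0.0656), Prep1f/+ replicate 3 (0.0641) or Prep1deltaSM replicate 2 (0.0738), and ranged from -1.84 to -1.68 with 1 mouse left out. Genes past an adjusted p of 0.05 numbered 61 with normexp, 0 with slide as a block, 20 with a trended robust fit, 0 without Prep1f/+ replicates 1 and 4, and 0 to 5 with 1 mouse left out. Members past an unadjusted p of 0.05 numbered 2 with slide as a block, and 1 to 2 with 1 mouse left out (Trim55 was added without Prep1f/+ replicate 3 or Prep1deltaSM replicate 3). Listed genes past an adjusted p of 0.05 numbered 1 with normexp, Insr. List medians moved to 0.0032 for the sarcomeric partners (normexp), 0.025 for the other ligases (authors' values) and, for the FoxO upstream genes, 0.11 (quantile), 0.13 (mean of probes), 0.12 (authors' values) and -0.019 to 0.089 with 1 mouse left out. The median of all genes was -0.01 with normexp and -0.13 with no filter. The cause was not tested. The labels pair no mice across groups, and the slide, which holds 1 array of each group, was the block fitted.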
